A study of Mus musculus with 4 samples.

Results

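The genes described here are 10 markers of preadipocytes and fibroblast progenitors, the stromal cells from which adipocytes are recruited, in the brown adipose tissue (BAT) of mouse fetuses. They were taken by symbol from a table of 22298 genes, in which all 10 were found: Pdgfra, Ly6a, Dpp4, Pi16, Cd34 and Thy1, which encode proteins at the cell surface or close to it, and Dcn, Lum, Fn1 and Fbn1, which encode extracellular matrix proteins. BAT was collected at E18.5 from fetuses labelled male and C57BL/6 (C57BL/6J in the methods of the study), whose dams were given tap water (control) or water with 20% (w/v) fructose (fructose) while pregnant, and each group had 2 RNA-seq libraries. The sources used here do not give the number of fetuses or litters behind a library, so the p-values measure only the spread between these libraries, which may be technical. The comparison of the groups addresses the RNA of these progenitor and fibroblast markers in whole fetal BAT after maternal fructose intake.

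Adipose progenitors are stromal cells that carry the platelet-derived growth factor receptor PDGFRα and lie around vessels and in the connective tissue of the depot. In adult depots, cells positive for DPP4 and PI16 lie in the interstitial connective tissue and can give rise to committed preadipocytes, which express ICAM1 and DLK1 and go on to fill with lipid. Fibroblasts of the same tissue build the matrix from collagens, fibronectin, fibrillin microfibrils and small proteoglycans. None of the 10 markers belongs to one cell type alone. CD34 and LY6A are also found on endothelial cells, THY1 on T cells and neurons, and fibronectin in the plasma, where the liver secretes it.

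Library totals on genes ran from 18542897 to 23645147 counts. Absence of counts for a gene still allowed a level of up to 0.127 to 0.162 CPM (counts per 1000000 counts of the library, set by a floor of 3 counts per library and limited to counting error). Before any result, the fructose libraries stood apart from their labels. Summed over the Y-linked genes Uty, Kdm5d, Ddx3y and Eif2s3y, control had 422 and 390 counts while both fructose libraries had 0, so the sex of the fetuses and the fructose intake of the dams cannot be told apart in this comparison. The mitochondrial share of counts was 5.89% and 6.49% in control against 10.8% and 11.2% in fructose. The labelled tissue was borne out by its adipocyte markers, whose summed level over 10 genes led by Ucp1 was 22722 to 27553 CPM. Across 12884 tested genes, the log2 fold change of fructose against control rose with the length of the longest annotated transcript (Spearman's rho 0.50, across genes, which are not independent replicates) and fell with its GC content (rho -0.50).

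All 10 markers had counts in all 4 libraries and all passed the filter on low counts. Their levels, written as RPKM (CPM after TMM normalization per kilobase of the longest annotated transcript) so that genes can be compared with each other, ran from Cd34 down to Dpp4. Cd34, a sialomucin of progenitor and endothelial surfaces, was the highest, at 47.4 ± 1.24 RPKM in control and 50.4 ± 1.0 RPKM in fructose (SD, n = 2 libraries each, as for all levels here). Fn1, which encodes fibronectin, followed at 32.9 ± 1.05 and 34.5 ± 0.622 RPKM. Ly6a, which encodes the GPI-anchored stem cell antigen SCA-1, was next at 32.5 ± 0.183 and 30.2 ± 3.93 RPKM, and Fn1 and Ly6a differed by less than the sum of their SDs in both groups. Dcn stood at 14.0 ± 1.6 and 15.1 ± 0.377 RPKM, Fbn1 at 12.1 ± 0.118 and 13.9 ± 0.17 RPKM, Lum at 7.74 ± 2.4 and 10.5 ± 0.301 RPKM and Pi16 at 5.60 ± 0.532 and 5.50 ± 0.43 RPKM. Lum and Pi16 differed by less than the sum of their SDs in control, but not in fructose. Thy1 was above Pdgfra in control, at 3.09 ± 0.285 against 2.38 ± 0.219 RPKM, while in fructose their libraries overlapped, at 2.48 ± 0.78 against 2.62 ± 0.155 RPKM. Dpp4 was the lowest marker in both groups, at 0.23 ± 0.0428 and 0.532 ± 0.00722 RPKM. Among all tested genes, the control mean of Cd34 lay at percentile 89.8, that of Pdgfra at 38.3 and that of Dpp4 at 6.93.

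**Figure D1:**
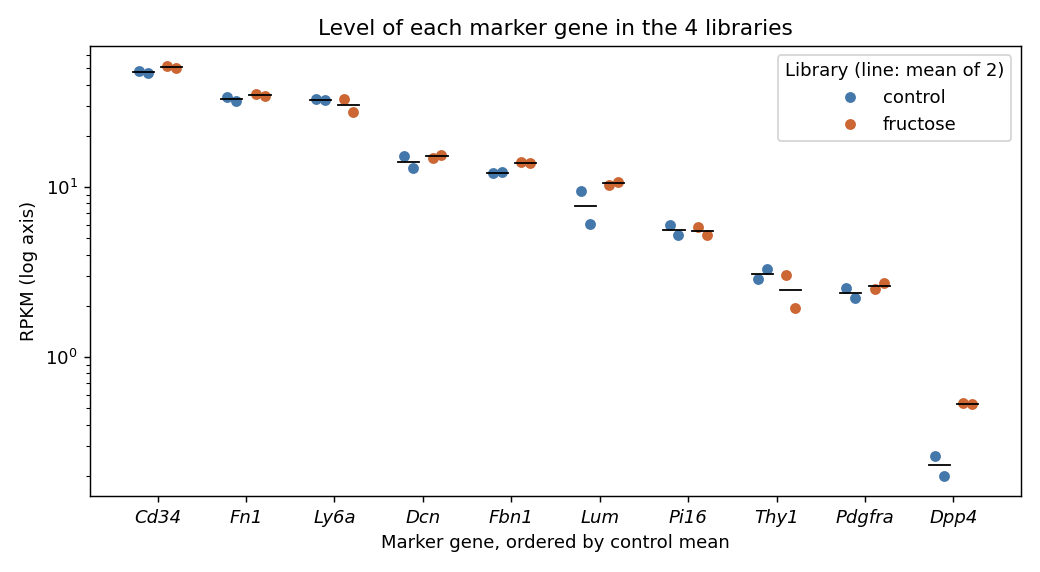
Level of each marker gene in RPKM on a log axis, with 1 point per library, blue for control and orange for fructose, and a line at the mean of each group of 2 libraries. Apart from Thy1 and Pdgfra, which trade places, the genes keep the same order in both groups, from Cd34 near 50 RPKM down to Dpp4 under 1 RPKM, and the fructose points of Dpp4 lie well above its control points.

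Of the 10 markers, Dpp4 alone passed the test in the comparison of fructose with control, and it was higher. By the quasi-likelihood test of edgeR, with Benjamini-Hochberg adjustment over 12888 tested genes, 1 marker was higher and 0 were lower at an adjusted p-value under 0.05, where 15.5% of all tested genes were called higher and 10.7% lower. With 10 genes, these counts are near the background shares. The share of all calls that were higher was 59.2%, and it was 72.3% when libraries were scaled by size only and 46.7% with the trends over transcript length and GC content removed. At an unadjusted p-value under 0.05, edgeR gave 3 markers higher (Dpp4, Lum and Fbn1) and 0 lower. The share of all tested genes at this threshold without a fold cut is not given here. DESeq2 called 0 markers in either direction after adjustment, where it called 10.6% of all tested genes higher and 8.25% lower. The thresholds of the study's methods (a fold change above 1.3 at p under 0.05, unadjusted) were applied to the edgeR values. The study itself used DESeq2. By these thresholds in edgeR, Dpp4 and Lum were higher, where 17.6% of all tested genes were called higher and 6.18% lower. The log2 fold change was positive for 7 markers and negative for 3, with a median of 0.10 beside 0.0025 over all tested genes. Both fructose libraries lay above both control libraries for 5 markers (Dpp4, Cd34, Lum, Fn1 and Fbn1) and below them for 0, against 33.4% and 31.6% of all tested genes, or 65.1% without overlap in either direction. Since the libraries come from whole tissue, a change in the number of progenitors and a change in RNA per cell cannot be told apart.

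**Figure D2:**
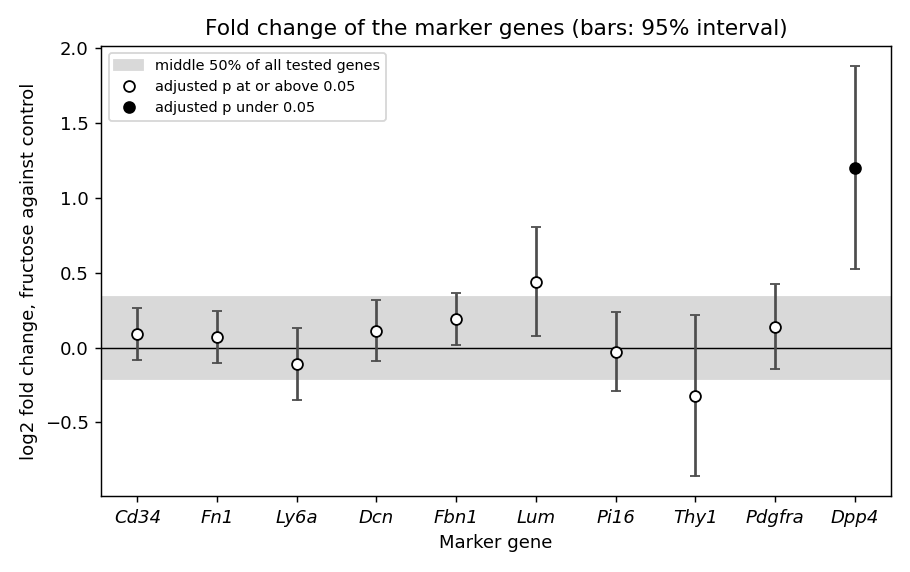
Log2 fold change of fructose against control for each marker gene from edgeR, with 95% intervals as bars, filled points at an adjusted p-value under 0.05 and a grey band over the middle 50% of all tested genes (-0.21 to 0.33). Dpp4 at 1.20 is the filled point, Lum and Thy1 are the other points outside the band, and the intervals of 7 markers include 0.

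Dpp4 encodes dipeptidyl peptidase 4 (CD26), a serine protease on the cell surface that marks interstitial progenitors, though not these cells alone. Its gene (ENSMUSG00000035000) lies on the minus strand of chromosome 2 from 62330073 to 62412231 (mm10). Its read counts were 26 and 19 in control against 64 and 68 in fructose, which corresponds to 1.37 and 1.05 CPM in control and 2.83 and 2.78 CPM in fructose, so that the fructose libraries were close to each other and above both control libraries. The fold change was 2.30 (95% interval 1.44 to 3.67), a log2 fold change of 1.20 with a standard error of 0.31 and an adjusted p-value of 0.0150 from edgeR, at percentile 96.4 of all tested genes. The direction held in all 15 alternative ways of processing, with log2 fold changes from 0.73 to 1.4, and the call held in 9 of them (adjusted p from 0.0053 to 0.18). DESeq2 did not call it (adjusted p = 0.056). The call was also lost in edgeR without fructose library 1 (1.19, adjusted p = 0.064), without fructose library 2 (1.22, adjusted p = 0.070) and with the GC content trend removed (0.83, adjusted p = 0.077), and with both trends removed the value was 0.73 (adjusted p = 0.15). On the opposite strand, Gm13561 shares 232 exon bases with Dpp4, and since the strand setting of the counting is not given in the sources used here, reads of the overlap cannot be assigned. The same holds for antisense genes that share exon bases with Pdgfra (456 with Gm42802), Fn1 (292 with Apol7d), Pi16 (222 with AC162182.1) and Cd34 (148 with Gm16897). Neither Gm13561 nor any of these antisense genes was among the 22298 genes listed.

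The 250 bases before the transcription start of Dpp4 are shown because it is the marker that was called. Those of Pdgfra are shown because it is the usual marker of adipose progenitors and was not called. Both are from RefSeq on GRCm38.p6 (mm10), 5′ to 3′ along the gene, and 5 of the 10 markers had such a window. The motifs searched, on both strands, were the TATA box as TATAAA, the CCAAT box by its own letters, the GC box as GGGCGG, the E-box as CACGTG and the STAT element as TTCNNNGAA, and capitals mark a match.
Dpp4, chr2:62412232-62412481, minus strand: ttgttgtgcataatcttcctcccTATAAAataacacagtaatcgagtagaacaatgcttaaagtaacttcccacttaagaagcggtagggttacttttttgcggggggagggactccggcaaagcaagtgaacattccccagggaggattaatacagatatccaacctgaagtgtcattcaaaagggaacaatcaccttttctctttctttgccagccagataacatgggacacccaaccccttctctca
Pdgfra, chr5:75152001-75152250, plus strand: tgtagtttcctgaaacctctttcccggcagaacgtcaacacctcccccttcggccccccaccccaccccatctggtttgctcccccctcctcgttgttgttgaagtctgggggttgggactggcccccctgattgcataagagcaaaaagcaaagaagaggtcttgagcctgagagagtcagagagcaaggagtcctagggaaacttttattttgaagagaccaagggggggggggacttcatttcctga
The window of Dpp4 held TATAAA, whose last base is 222 bases before the start, as did 12.4% of 32851 such windows of all genes. Its GC content was 43.6%, against 54.4% in the window of Pdgfra, which held none of the 5 motifs. Windows with GGGCGG made up 32.7% of all, those with CCAAT 33.8%, with CACGTG 6.02% and with TTCNNNGAA 7.02%. These matches describe the letters of the windows and not the binding of a factor.

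The other surface markers stayed without a call, and their libraries overlapped between the groups except for Cd34. Pdgfra (ENSMUSG00000029231, chromosome 5, 75152292 to 75198215) encodes the receptor tyrosine kinase that binds platelet-derived growth factors and is the usual marker of adipose progenitors. It had 17.3 and 15.2 CPM in control and 17.2 and 18.7 CPM in fructose, a fold change of 1.10 (95% interval 0.905 to 1.34, edgeR adjusted p = 0.46). The higher control library and the lower fructose library were nearly level. Pi16 (ENSMUSG00000024011, chromosome 17, 29317680 to 29330593) encodes peptidase inhibitor 16, which marks the same interstitial cells as Dpp4. It was at 23.9 and 20.8 CPM in control and 23.2 and 20.7 CPM in fructose, with a fold change of 0.981 (95% interval 0.818 to 1.18, edgeR adjusted p = 0.89). Each group thus had 1 library near 23 CPM and 1 near 21 CPM, and the interval excludes a change of the size seen for Dpp4.

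Cd34 (ENSMUSG00000016494, chromosome 1, 194938819 to 194961279) was at 148 and 142 CPM in control and 157 and 152 CPM in fructose. The fructose libraries lay just above the control libraries, by a fold change of 1.06 (95% interval 0.944 to 1.20, edgeR adjusted p = 0.43). Of the 10 endothelial markers, which share Cd34 with the progenitors, 0 were higher and 3 (Cldn5, Egfl7 and Esam) lower in edgeR. Over all tested genes, 15.5% were called higher and 10.7% lower. The endothelial markers had 2 higher and 5 lower at an unadjusted p-value under 0.05 and 0 higher and 2 lower in DESeq2. Their summed level was 1894 and 1932 CPM in control and 1684 and 1766 CPM in fructose, and its part in the value of Cd34 was not tested. Ly6a (ENSMUSG00000075602, chromosome 15, 74994877 to 74998031) was at 31.2 and 30.9 CPM in control and 31.5 and 26.2 CPM in fructose, with fructose library 2 below the other libraries. Its fold change was 0.927 (95% interval 0.784 to 1.10, edgeR adjusted p = 0.50). Ly6a has close paralogs beside it, among which the counting could have split reads.

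Thy1 (ENSMUSG00000032011, chromosome 9, 44043384 to 44048579), which encodes the GPI-anchored glycoprotein CD90, had the lowest fold change of the 10 markers, at 0.801 (95% interval 0.552 to 1.16, edgeR adjusted p = 0.36). It was at 5.01 and 5.71 CPM in control and 5.26 and 3.35 CPM in fructose. Fructose library 2 was below the others, while fructose library 1 lay between the control libraries. Without fructose library 2 the log2 fold change of Thy1 was -0.024, and without fructose library 1 it was -0.67 (adjusted p over the alternatives 0.13 to 0.97). The 9 lymphocyte markers had a summed level of 3.33 and 5.22 CPM in control and 3.32 and 5.06 CPM in fructose. Of these, Cd3e had 1 to 5 counts and Cd3g 0 to 4 counts in a library. The 7 neuron markers, led by Stmn2, had a summed level of 1.59 to 2.83 CPM over all 4 libraries, and 1 of them, Elavl4, had 0 counts in all libraries.

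Among the matrix genes, the small leucine-rich proteoglycans decorin and lumican bind collagen fibrils and regulate their assembly. Dcn (ENSMUSG00000019929, chromosome 10, 97479609 to 97518143) and Lum (ENSMUSG00000036446, chromosome 10, 97565128 to 97572703) lie on the same strand with 47.0 kb between them. Dcn was at 70.8 and 60.2 CPM in control and 69.6 and 72.1 CPM in fructose, so that the groups overlapped (fold change 1.08, 95% interval 0.938 to 1.25, edgeR adjusted p = 0.40). Lum was at 23.1 and 14.8 CPM in control and 25.2 and 26.3 CPM in fructose. Control library 2 was far below the other 3 libraries, which lay close together. The fold change of Lum was 1.36 (95% interval 1.05 to 1.75, log2 fold change 0.44, standard error 0.17, edgeR adjusted p = 0.072). Control library 2 carried this value, which was 0.16 on the log2 scale without it and 0.80 without control library 1 (adjusted p = 3.4e-06, over the alternatives 3.4e-06 to 0.83).

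The call on Dcn depended on the GC content trend. The longest transcript of Dcn has a GC content of 37.4%, the lowest of the 10 markers, where the median of tested genes was 50%. With the GC content trend removed, Dcn had a log2 fold change of -0.54 and was called lower by edgeR (adjusted p = 0.0019, over the alternatives 0.00033 to 0.99), and with both trends removed it was also -0.54 (adjusted p = 0.0022). Lum, with a GC content of 41.9%, was at 0.059 with this trend removed and 0.53 with the length trend removed (adjusted p = 0.039). The lower Dcn and the higher Lum were therefore each called in some ways of processing and not in others.

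**Figure D3:**
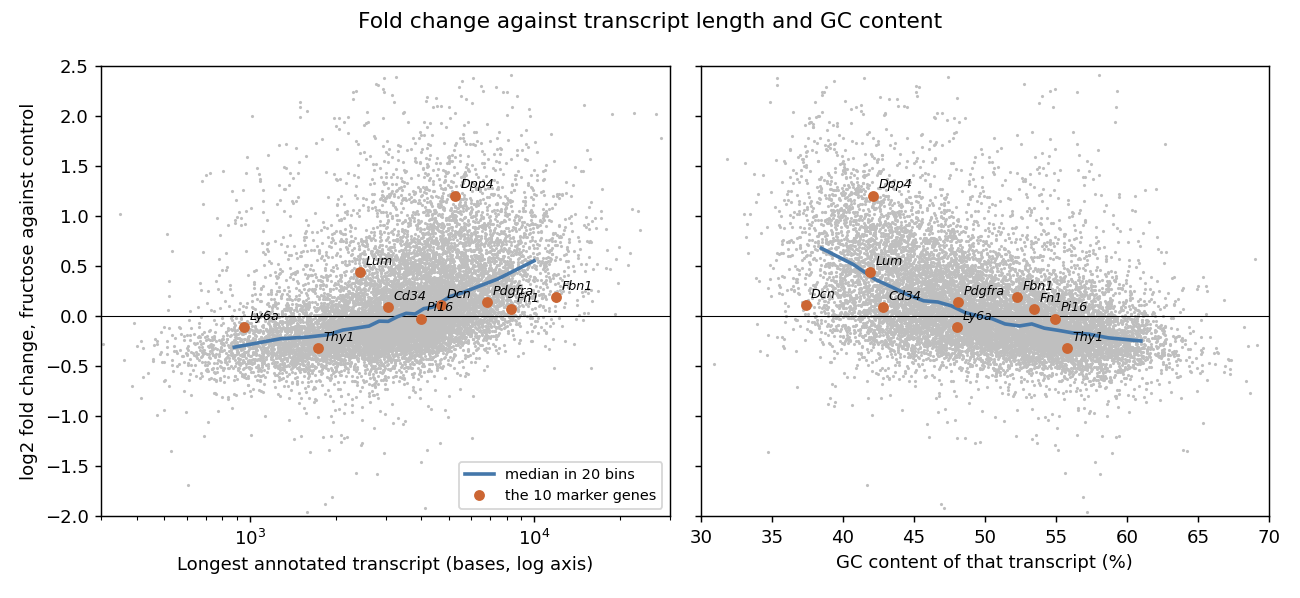
Log2 fold change of fructose against control for 12884 tested genes (grey) against the length of the longest annotated transcript (left, log axis) and its GC content (right), with the median in 20 bins as a blue line and the 10 marker genes in orange; 37 and 35 genes lie outside the axes of the left and right plot. Fn1 and Pdgfra lie below the line at their lengths, and Fbn1 and Dcn lie beyond the ends of the lines and below their nearest values.

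Fibronectin and fibrillin-1 form the fibrils and microfibrils on which other matrix proteins are laid down. Fn1 (ENSMUSG00000026193, chromosome 1, 71585520 to 71653200, minus strand) had the most counts of the 10 markers, 5301 and 4822 in control against 6573 and 6940 in fructose. Scaled, this is 280 and 267 CPM in control and 291 and 283 CPM in fructose, with a fold change of 1.05 (95% interval 0.929 to 1.18, edgeR adjusted p = 0.56). Both fructose libraries were above both control libraries, by less than the spread that the test allows for. Fbn1 (ENSMUSG00000027204, chromosome 2, 125300594 to 125507993, minus strand) was at 144 and 146 CPM in control and 167 and 164 CPM in fructose, a clear gap between close pairs. Its fold change was 1.14 (95% interval 1.01 to 1.28, log2 fold change 0.19, standard error 0.08, edgeR adjusted p = 0.093). The liver markers Ttr, Afp, Serpina1a and Fgb had 0 counts in all libraries, and the summed level of the 6 liver markers was at most 0.133 CPM. Gm9913 on the opposite strand shares 2442 exon bases with Fbn1, and reads of this overlap cannot be assigned without the strand setting. It was not among the 22298 genes listed.

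Fbn1 and Fn1 have the longest transcripts of the 10 markers, 11971 and 8315 bases, where the upper quartile of tested genes began at 4870 bases. With the transcript length trend removed, both turned to lower and were called by edgeR, Fbn1 at -0.37 (adjusted p = 0.011, over the alternatives 0.011 to 0.33) and Fn1 at -0.34 (adjusted p = 0.015, over the alternatives 0.015 to 0.82). With the GC content trend removed instead, Fbn1 was called higher at 0.26 (adjusted p = 0.043), and it was also called higher when libraries were scaled by size only, at 0.25 (adjusted p = 0.030). With both trends removed, Fbn1 was at -0.29 (adjusted p = 0.045) and Fn1 at -0.24 (adjusted p = 0.082). The direction of Fbn1 was therefore not settled by these libraries. Of the 10 markers, 7 changed sign with both trends removed, the exceptions being Dpp4, Lum and Thy1, and their median was then -0.073.

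**Figure D4:**
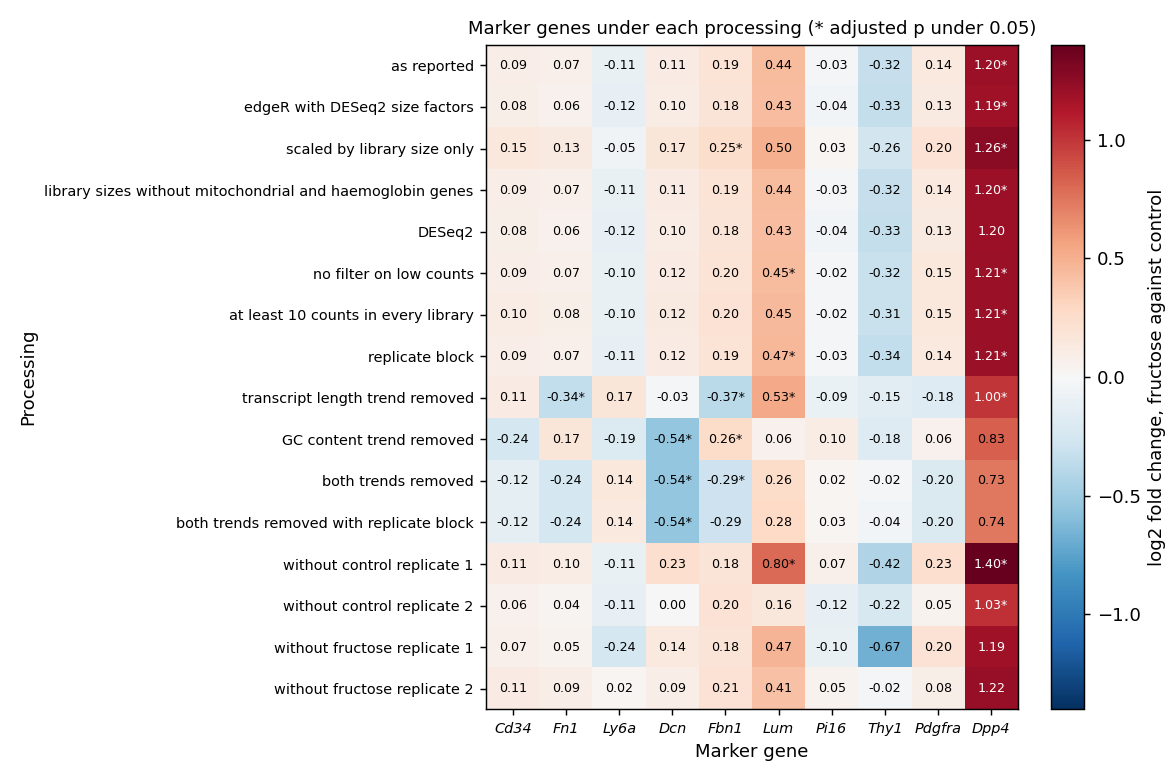
Log2 fold change of each marker gene (columns) as reported and under 15 alternative ways of processing (rows), from blue (lower in fructose) to red (higher), with an asterisk at an adjusted p-value under 0.05. Dpp4 is red in every row with 10 asterisks, and the asterisks of Fn1, Dcn and the blue cells of Fbn1 fall in rows with a trend removed.

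The genes around these markers were described in 10 lists with 124 genes of adipose progenitors, fibroblast matrix and the ligands and receptors of the markers. Of the 118 that were tested, 20 were higher and 11 lower in edgeR at an adjusted p-value under 0.05, 26.3% beside 26.2% of all tested genes. Their median log2 fold change was -0.01. With both trends removed, 2 were higher and 6 lower, where 4.29% of all tested genes were called higher and 4.89% lower. Of the 2 and 6 genes, 2 and 3 were also called in that direction without the removal. These 5 genes were Aspn, Timp3, Dlk1, Fbln5 and Ltbp3. The edgeR counts called in each list below stand beside 15.5% of all tested genes called higher and 10.7% called lower. For DESeq2 the shares were 10.6% higher and 8.25% lower, and for edgeR with both trends removed 4.29% and 4.89%. The share of all tested genes at an unadjusted p-value under 0.05 is not given here. By list, the share called ran from 0% of the collagen genes to 50% of the fibronectin receptors and matrix glycoproteins.

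Of the 14 tested genes of interstitial progenitors, the population marked by Dpp4 and Pi16, 3 were higher and 0 lower in edgeR (4 higher and 0 lower at an unadjusted p-value under 0.05, and 1 higher and 0 lower in DESeq2). This is 21.4% called, beside 26.2% of all tested genes, and 7 of the 14 log2 fold changes were positive and 7 negative. The highest of the 3 called genes was Creb5, which encodes a transcription factor of the CREB family, at 1.21 and 0.832 CPM in control and 1.90 and 2.33 CPM in fructose (log2 fold change 1.04, standard error 0.36, edgeR adjusted p = 0.049). Sema3c, a secreted semaphorin, was higher by 0.87 and Cd55, a complement regulator, by 0.84, and with both trends removed the values of these 3 genes were 0.48, 0.41 and 0.66 without a call. Axl, a receptor tyrosine kinase with the highest level of the list, was at 99.9 ± 1.16 CPM in control against 90.6 ± 1.03 CPM in fructose and was not called (adjusted p = 0.21).
Of the 14 tested genes of committed preadipocytes, 0 were higher and 2 lower (0 and 3 at an unadjusted p-value under 0.05, 0 and 2 in DESeq2). Dlk1, which encodes the preadipocyte factor PREF-1, had the highest level and the lowest fold change among the called genes. Its libraries were at 736 and 674 CPM in control and 511 and 528 CPM in fructose, so that the groups were well apart (log2 fold change -0.44, standard error 0.09, edgeR adjusted p = 0.0041). It was -0.48 with both trends removed and stayed called (adjusted p = 0.0068). Cygb, a globin of fibroblasts, was lower, with a log2 fold change of -0.41, and was at -0.14 without a call with both trends removed. Icam1, the other marker of committed cells, was at 8.02 ± 0.599 CPM in control against 8.85 ± 0.800 CPM in fructose and was not called.

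Among the 14 tested mesenchymal transcription factors, 3 were higher and 0 lower in edgeR (6 and 3 at an unadjusted p-value under 0.05, 3 and 0 in DESeq2). Prrx1, a homeobox factor of limb and connective tissue mesenchyme, was at 6.81 and 5.77 CPM in control and 11.1 and 14.2 CPM in fructose (log2 fold change 1.0, standard error 0.18, edgeR adjusted p = 0.0025). Ebf1, which acts in adipocyte differentiation and had the highest level of the list, rose by 0.53 ± 0.14 (SE, edgeR adjusted p = 0.019). Tcf4 rose by 0.87 ± 0.17 (SE, edgeR adjusted p = 0.00365). With both trends removed, Prrx1 was at 0.51, Ebf1 at 0.050 and Tcf4 at 0.11, none of them called. Tcf21, a factor of visceral mesenchyme, had 0 counts in all libraries.

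In the comparison as reported, none of the 12 collagen genes was called by edgeR or DESeq2, and 1 (Col5a3) was higher at an unadjusted p-value under 0.05, with log2 fold changes from -0.16 to 0.27. Col3a1, the highest of them, was at 2111 ± 227 CPM in control against 2257 ± 38.1 CPM in fructose. With both trends removed, edgeR called 2 collagen genes lower, Col12a1 at -0.60 (adjusted p = 0.0027) and Col6a3 at -0.30 (adjusted p = 0.042), which were at -0.032 and 0.080 before the removal.
The small leucine-rich proteoglycans, the family of Dcn and Lum, had 7 tested genes, of which 2 were higher and 1 lower. Aspn, which encodes asporin, was at 7.60 and 3.99 CPM in control and 14.5 and 16.3 CPM in fructose, with both fructose libraries far above the control libraries (log2 fold change 1.4, standard error 0.23, edgeR adjusted p = 0.0016). It stayed called with both trends removed (0.86, adjusted p = 0.016). Ogn was higher by 0.76, and Prelp, the highest of the list, was lower at 349 and 414 CPM in control and 295 and 306 CPM in fructose (log2 fold change -0.35, edgeR adjusted p = 0.020), neither called with both trends removed.

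In the elastic fibre and microfibril list, the family of Fbn1, 1 gene was higher and 6 were lower of 19 tested, with a median log2 fold change of -0.23. This is 36.8% called, beside 15.5% of all tested genes called higher and 10.7% called lower (26.2% together). In this list, DESeq2 called 0 higher and 3 lower, and at an unadjusted p-value under 0.05 edgeR gave 2 higher and 8 lower. The genes called lower were Mfap2, Loxl1, Ltbp3, Emilin1, Fbln5 and Fbln2, which encode structural, crosslinking and latent TGF-β binding proteins of the fibre. With both trends removed, Loxl1 (-0.21), Emilin1 (-0.19) and Fbln2 (-0.26) were not called, and Fbln5 stayed called (-0.57, edgeR adjusted p = 0.0024). Mfap2 was at 50.3 and 36.5 CPM in control and 29.4 and 30.4 CPM in fructose (log2 fold change -0.54, edgeR adjusted p = 0.012), and -0.099 without a call with both trends removed. Ltbp3 was at 483 and 508 CPM in control and 389 and 366 CPM in fructose (log2 fold change -0.39, edgeR adjusted p = 0.0063), and -0.47 with both trends removed (adjusted p = 0.00555). Lox, a crosslinking oxidase, was the gene called higher, by 0.45, and was 0.12 without a call with both trends removed.
Of the 14 tested fibronectin receptors and matrix glycoproteins, 7 were higher and 0 lower in edgeR (7 and 2 at an unadjusted p-value under 0.05, 5 and 0 in DESeq2). They included the integrin subunits Itgb1 (0.28), Itgav (0.70) and Itga4 (0.95), the basement membrane proteins Nid1 and Nid2, the proteoglycan Vcan and Postn. Postn, which encodes periostin, was at 58.0 and 41.0 CPM in control and 94.8 and 105 CPM in fructose (log2 fold change 1.01, standard error 0.13, edgeR adjusted p = 0.00055). With both trends removed none of the 7 was called, and Postn was at 0.25 (adjusted p = 0.13), while Tnxb, which encodes the matrix glycoprotein tenascin-X, was called lower at -0.41 (adjusted p = 0.0085) from -0.022 before the removal. Itga5, the main partner of Itgb1 in fibronectin binding, had a log2 fold change of -0.20 and was not called, and Sparc, the highest of the list, was at 1865 ± 59.5 CPM in control against 1869 ± 27.5 CPM in fructose.

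Among 13 genes of matrix turnover and fibroblast secretion, Timp3, an inhibitor of matrix metalloproteinases, was higher, at 97.9 and 91.5 CPM in control and 127 and 140 CPM in fructose (log2 fold change 0.49, standard error 0.09, edgeR adjusted p = 0.0023), and stayed called with both trends removed (0.29, adjusted p = 0.049). Pcolce and Mmp2 were lower, with log2 fold changes of -0.32 and -0.29, and were at -0.12 and -0.15 without a call with both trends removed. Serpinh1, a collagen chaperone with the highest level of the list, was not called (-0.21, adjusted p = 0.11).
Of the 4 ligands of the PDGF receptors, Pdgfd was higher, with 26 and 16 counts in control and 58 and 68 counts in fructose (log2 fold change 1.23, standard error 0.33, edgeR adjusted p = 0.018), and DESeq2 called 0. It was at 0.86 without a call with both trends removed. Pdgfd signals mainly through the β receptor. Pdgfa, a ligand of PDGFRα, and Pdgfb were not called, with log2 fold changes of -0.26 and -0.16, and neither was the receptor gene Pdgfrb (-0.064).
Of the 7 TGF-β genes, Tgfb2 and Tgfbr1 were higher in edgeR, by 1.21 and 0.58, and 0 were called by DESeq2. With both trends removed they were at 0.97 and 0.012, without a call. Tgfb2 had 10 and 23 counts in control and 44 and 54 in fructose, and Tgfbr2, the highest of the list, was not called (0.16, adjusted p = 0.16).

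**Figure D5:**
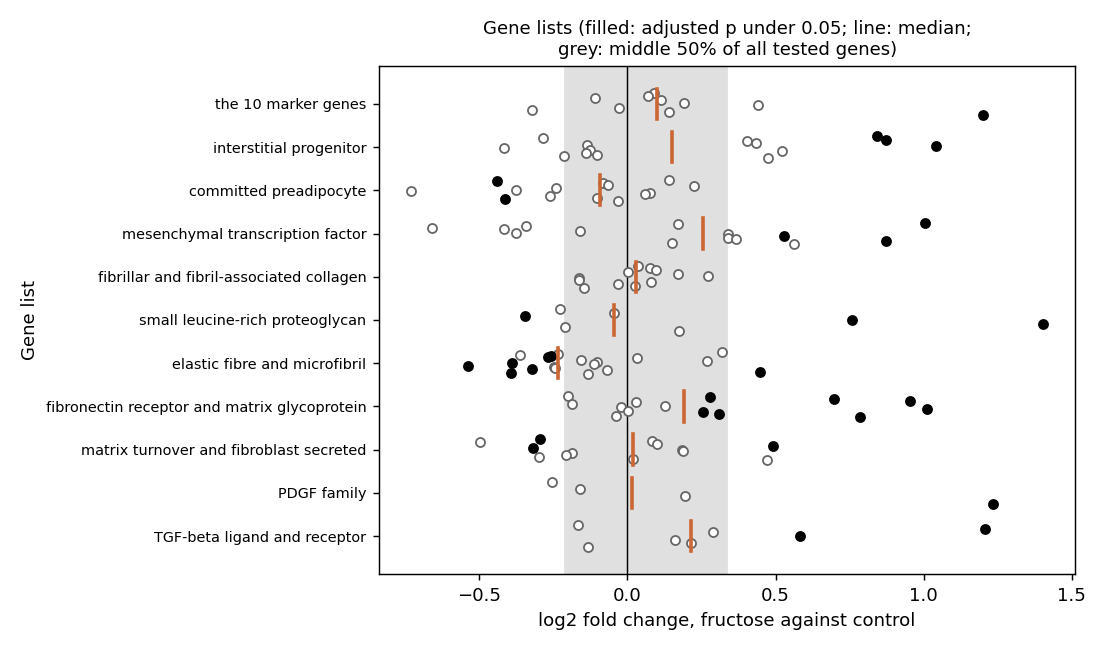
Log2 fold change of fructose against control for the 10 marker genes and each of the 10 lists around them, with 1 point per tested gene, filled at an adjusted p-value under 0.05, an orange line at the list's median and a grey band over the middle 50% of all tested genes. The elastic fibre list has its median at -0.23 and 6 filled points below 0, and the fibronectin receptor list has 7 filled points above 0.

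Markers of other cell types in the tissue were measured beside these genes. The 9 skeletal muscle markers were all higher in edgeR, with log2 fold changes from 0.98 to 2.13. Their summed level was 228 and 311 CPM in control and 541 and 732 CPM in fructose. The 7 erythroid markers included 0 higher and 5 lower, with a summed level of 15294 and 19204 CPM in control and 11766 and 12141 CPM in fructose (0 and 6 at an unadjusted p-value under 0.05, 0 and 5 in DESeq2). Adipocyte markers had 0 higher and 5 lower of 10 (0 and 5 at an unadjusted p-value under 0.05, 0 and 4 in DESeq2). Of 8 macrophage markers 1 was higher and 2 lower, with a summed level of 190 to 251 CPM in control and 189 to 196 CPM in fructose, and of 8 mural and smooth muscle markers 1 was higher and 0 lower, at 516 to 533 and 482 to 524 CPM. Tendon markers, whose cells share Dcn, Lum and Fbn1 with fibroblasts, had a summed level of 2.16 and 2.66 CPM in control and 3.71 and 4.49 CPM in fructose, with Mkx at 0 counts in all libraries. Cartilage and bone markers were at 4.66 to 6.90 CPM, mesothelium markers at 0.939 to 1.85 CPM with Msln at 0 counts, epidermis markers at 0.555 to 3.02 CPM, neuron markers at 1.59 to 2.83 CPM and Schwann cell markers at 101 to 115 CPM over all 4 libraries. Of 8 cell-cycle genes Mki67 was higher, by 1.74 (edgeR adjusted p = 0.000375), and the other 7 were not called. The log2 fold changes of the 8 were positive for 3 and negative for 5, with a median of -0.15. The part of these cell types in the values of the 10 markers was not tested.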

How the data were processed

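RNA-seq libraries of fetal BAT, 2 from control and 2 from fructose dams, were grouped by their labels. The deposited values are raw read counts per gene and library, which the authors made from reads trimmed with fastp and aligned to mm10 with Bowtie2 2.0.0.5 and TopHat2 2.0.0. Transcripts were assembled with StringTie 2.2.0 and joined with Cuffmerge, and gene counts were taken from the merged annotation. The program that counted the reads, its strand setting and the reference annotation release are not given in the sources used here. The per-library files held the same counts as the joint table.

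Ensembl IDs were matched to symbols, positions, lengths and GC contents in GENCODE, and 43 of 22298 IDs had no match. Counts were tested with edgeR 4.0.16 (filterByExpr, TMM, quasi-likelihood F-test, R 4.3.3) with fructose against control over 12888 genes, and p-values were adjusted by Benjamini-Hochberg with a threshold of 0.05. Standard errors were derived from the log2 fold change and its F statistic, and 95% intervals from these. The coefficient of variation between replicate libraries beyond counting error, from the common dispersion of edgeR over all tested genes, was 8.52%. Alternatives were DESeq2 1.42.0, other scalings and filters, a replicate block, trends over transcript length and GC content removed by lowess (span 0.3), and each library left out. Scripts were tested on simulated counts. The members and lists were chosen with earlier results of these data known. Named were all 10 markers and, in each list around them, the gene with the highest mean CPM and the called genes with the highest and the lowest log2 fold change whose groups did not overlap. Other genes are named to spell out a count or were chosen after their values were seen.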

Additional observations from a re-analysis of the deposited data

How the results depend on the processing

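With 2 libraries a group, unknown fetus numbers and fructose libraries that go against their label, the comparison rests on few and doubtful samples, and Dpp4 has at most 68 counts in a library. The number of genes called higher (2001) was 1147 with the transcript length trend removed, 1111 with the GC content trend removed, 553 with both removed, 687 with both removed and the replicate block, and 1207 to 2225 with 1 library left out, lowest without fructose library 2. The number called lower (1379) was 859 with library sizes as the scaling, 630 without both trends, 681 with both removed and the block, and 485 to 1700 with 1 library left out, being 825 without fructose library 1 and 485 without fructose library 2. Markers called higher (1) were 2 with library size only, with no filter, with the replicate block, with the length trend removed and under the study's thresholds, 0 with DESeq2, with both trends removed and with both removed and the block, and 0 to 2 with 1 library left out. Markers called lower (0) were 2 with the length trend removed, 1 with the GC content trend removed, 2 with both removed and 1 with both removed and the block. In the lists around them, genes called higher (20) were 11 with DESeq2, 7 without the length trend, 10 without the GC content trend, 2 without both, 2 without both and with the block, and 9 to 24 with 1 library left out, while genes called lower (11) were 6 with library size only, 7 with DESeq2, 20, 2, 6 and 5 in the same order of trends, and 3 to 18 with 1 library left out.

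With the length trend removed, log2 fold changes were -0.18 for Pdgfra, 0.17 for Ly6a, -0.030 for Dcn, -0.34 for Fn1, -0.37 for Fbn1 and 0.53 for Lum. With the GC content trend removed they were 0.83 for Dpp4, 0.099 for Pi16, -0.24 for Cd34, -0.54 for Dcn and 0.26 for Fbn1. With both removed they were -0.20 for Pdgfra, 0.14 for Ly6a, 0.73 for Dpp4, 0.023 for Pi16, -0.12 for Cd34, -0.54 for Dcn, -0.24 for Fn1 and -0.29 for Fbn1, and with the replicate block added -0.20, 0.14, 0.74, 0.026, -0.12, -0.54, -0.24 and -0.29 for the same genes. Dpp4 was 1.20 with DESeq2, Pi16 0.033 and Fbn1 0.25 with library size only, and Lum 0.45 with no filter. With 1 library left out, Ly6a ranged from -0.24 to 0.022, Dpp4 from 1.03 to 1.4, Pi16 from -0.12 to 0.070 and Lum from 0.16 to 0.80. The causes of these shifts were not tested, beyond what the removal of a trend or a library does by construction.

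The groups share replicate numbers, but same-numbered libraries did not deviate together (correlation of deviations -0.027), so the numbers were not taken to pair them. With the replicate block, 2117 genes were higher and 1441 lower, Lum was called at 0.47 (edgeR adjusted p = 0.0098, over the alternatives 3.4e-06 to 0.83), and no other marker changed its call.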
